A study of Mus musculus with 10 samples.

Results

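The genes examined here were 6 markers of Group 3 medulloblastoma (MB) and of photoreceptors: Otx2, Npr3, Impg2, Crx, Nrl and Rcvrn. They were picked by gene symbol from the 50559 genes of the count files and followed through 10 libraries in 3 groups of mouse tissue. All 6 passed the filter on low counts, as did 29952 genes in all. No photoreceptor tissue and no human MB was among these libraries, so the genes are named for what they mark elsewhere and not for what the samples are.

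The study asked whether overexpression of MYC together with loss of the chromatin remodeler SMARCA4 in granule cell precursors (GCPs) gives rise to MB in mice. The 4 MYC/SMARCA4 tumors grew in CD1nu/nu hosts, which lack mature T cells, after transplantation of GCPs. The GCPs came from Math1-creERT2::Smarca4fl/fl pups given tamoxifen and were transduced with a lentivirus that carries murine Myc and GFP. The hosts were 112, 96, 89 and 79 days old for tumors 1 to 4. The 3 P7 cerebella were taken at 7 days from Math1-creERT2::Smarca4fl/fl mice that had received 0.4 mg tamoxifen on day 3. The controls therefore carry the floxed alleles and the Cre as well, and Math1 restricts the recombination to the granule cell lineage. The 3 SHH MB came from Math1-cre::Smofl/wt mice, in which Sonic hedgehog signaling is switched on in the same lineage, and their labelled age is 7 days as well. No MYC/SMARCA4 tumor was as young as the other groups, so age and host cannot be told apart from tumor type in either comparison with these tumors.

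OTX2, CRX and NRL form a chain of transcription factors in the retina. OTX2 specifies photoreceptors and switches on CRX, a homeodomain factor of the same family, and NRL then directs cells to become rods. Many human Group 3 MB express this retinal program together with high MYC. OTX2 is also present outside the retina, in GCPs of the posterior lobules, in choroid plexus epithelium and in the pineal gland.

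Total counts were between 5663491 and 9352109 per library. Levels are given as CPM, that is, counts scaled to library size, here after TMM normalization, and 3 counts, the floor used here, corresponded to between 0.307 and 0.744 CPM. Myc, the gene carried by the virus, was at 152, 368, 1587 and 1016 CPM in tumors 1 to 4, against 13.0 to 14.3 CPM in P7 cerebella and 33.7 to 45.7 CPM in SHH MB. All tumors were above all other libraries, and the fitted log2 fold change was 5.85 ± 0.75 (SE) against P7 cerebella with an adjusted p of 0.00194 in edgeR. Counts from the virus and from the endogenous gene are summed. Smarca4, the deleted gene, was at 136 to 244 CPM in the tumors and at 221 to 282 CPM in P7 cerebella, and these ranges overlapped (log2 fold change of -0.30 ± 0.28, adjusted p = 0.495 in edgeR). SHH MB were at 491 to 590 CPM, above all other libraries. The counts cover the whole gene and all cells of a tissue sample, so they do not check the deletion. Likewise, fewer cells that express a gene and less of its RNA per cell cannot be told apart in any value below.

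None of the 6 genes passed the test in any of the 3 comparisons (edgeR's quasi-likelihood test over all 10 libraries, Benjamini-Hochberg adjusted p of at most 0.05). Among all 29952 genes tested, 3.99% were higher and 2.27% lower in MYC/SMARCA4 tumors than in P7 cerebella, 2.43% were higher and 2.26% lower than in SHH MB, and 0.177% were higher and 0.0467% lower in SHH MB than in P7 cerebella. At an unadjusted p of at most 0.05, 2 of 6 genes were lower in the tumors than in P7 cerebella, namely Crx and Nrl, where 9.97% of all genes tested were lower and 15.3% higher at that threshold. None of the 6 reached it in edgeR against SHH MB (7.1% of all genes lower and 12.7% higher) or in SHH MB against P7 cerebella (5.16% higher and 3.64% lower). DESeq2 and limma on the deposited VST values also gave 0 of 6 in each comparison. The members' median log2 fold change was -0.76 against P7 cerebella, where the median of all genes tested was -0.05. It was -0.21 against SHH MB (0.01 over all genes) and -0.53 for SHH MB against P7 cerebella (-0.09 over all genes).

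**Figure D1:**
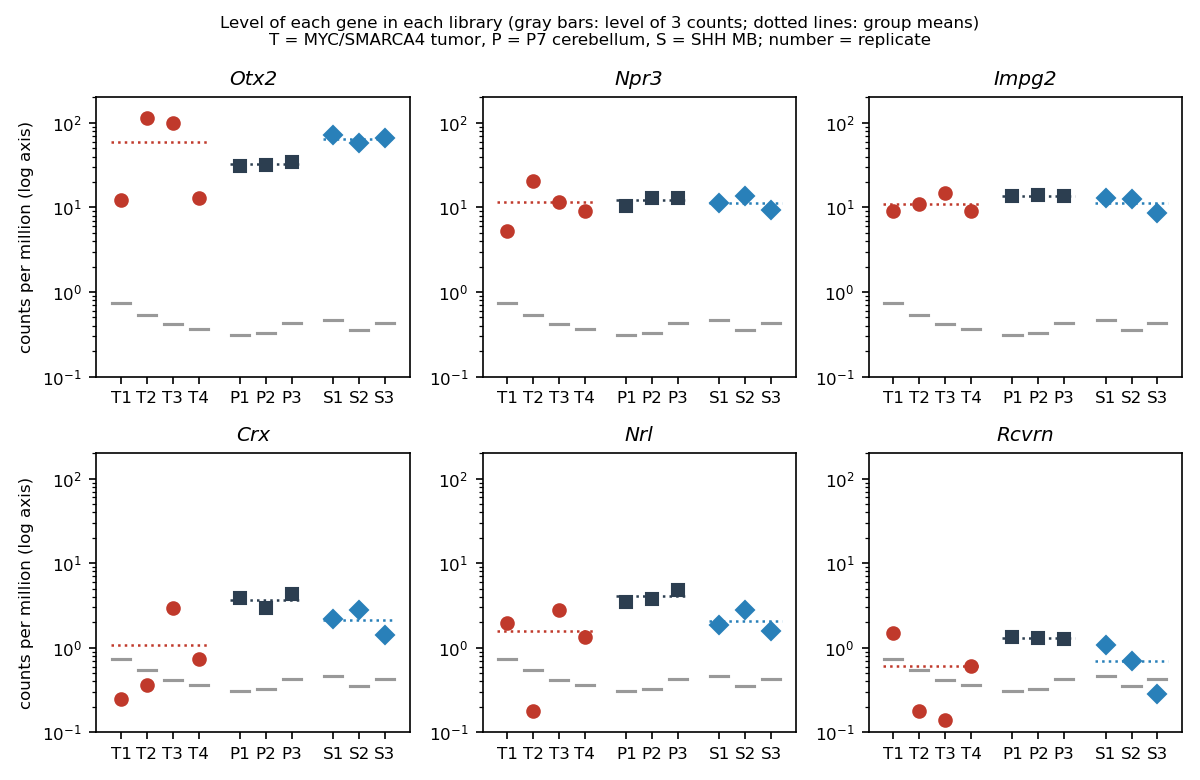
Level of each of the 6 genes in each library in CPM on a log axis, with the libraries on the x axis (T, MYC/SMARCA4 tumors, P, P7 cerebella, S, SHH MB), dotted lines at group means and gray bars at the level of 3 counts in that library. Otx2, Npr3 and Impg2 stand above the gray bars everywhere, while Crx falls under them in tumors 1 and 2, Nrl in tumor 2 and Rcvrn in tumors 2 and 3 and in SHH MB 3.

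The 6 genes fell into a group that was counted well in every library and a group near the floor. Otx2 had 50 to 705 counts, Npr3 21 to 119 and Impg2 37 to 135. Crx had 1 to 38 counts and was at or under the floor in 2 of 10 libraries. Nrl had 1 to 35 counts and was there in 1 library, and Rcvrn had 1 to 13 counts and was there in 3. Rcvrn had under 10 counts in 8 of 10 libraries, Crx in 3 and Nrl in 2. Those 3 genes have only 173, 190 and 62 counts over all libraries, against 3748 for Otx2.

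Per length, Otx2 was also the highest of the 6. On the scale of CPM per kilobase of exon (RPKM), with the union of annotated exons as length, Otx2 had a median of 8.46 over the libraries and a range of 2.29 to 21.3. Impg2 had a median of 1.38 RPKM, Npr3 0.924, Rcvrn 0.854, Crx 0.792 and Nrl 0.420. The ranges of these 5 genes overlapped one another, except that the lowest value of Impg2 (0.919) was above the highest of Nrl (0.853). The highest among their values, 1.65 RPKM for Npr3 in tumor 2, was under the lowest value of Otx2.

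Otx2, on chromosome 14 (GRCm39, chr14:48894099-48911276, minus strand), had the widest spread of log2 CPM among the MYC/SMARCA4 tumors of all 6 genes. Tumors 1 to 4 had 50, 641, 705 and 107 counts, which correspond to 12.4, 115, 98.6 and 13.1 CPM. P7 cerebella 1 to 3 were at 30.7, 32.1 and 34.1 CPM, and SHH MB 1 to 3 at 71.1, 57.4 and 66.5 CPM. Tumors 2 and 3 thus lay above all other libraries and tumors 1 and 4 below all of them, with 9.31-fold between the lowest and the highest tumor. The SD of log2 CPM over the tumors was 1.76, and only 3.26% of the genes tested had a larger SD there (median over all genes, 0.805).

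Because the tumors lay on both sides, their comparisons for Otx2 have wide errors. Mean levels were 59.9 ± 54.9 CPM (SD, n = 4) in the tumors, 32.3 ± 1.73 CPM (n = 3) in P7 cerebella and 65.0 ± 6.98 CPM (n = 3) in SHH MB. The fitted log2 fold change was 0.89 ± 0.65 (SE) against P7 cerebella, with a 95% interval of -0.51 to 2.30 and an adjusted p of 0.386 in edgeR. The difference of mean log2 CPM, which weights low tumors more, was 0.20 (two-sided exact permutation p = 0.657). Against SHH MB the fitted value was -0.12 ± 0.63 (interval -1.49 to 1.25, adjusted p = 0.939 in edgeR) and the difference of mean log2 CPM was -0.80 (exact permutation p = 0.429). Neither comparison gives a direction for the group of tumors.

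In SHH MB, Otx2 was at 2.01-fold the level of P7 cerebella. The groups did not overlap, and the lowest SHH MB had 57.4 CPM against 34.1 CPM in the highest P7 cerebellum. The log2 fold change of 1.01 ± 0.69 (SE) had an interval of -0.48 to 2.49 and an adjusted p of 0.741 in the edgeR fit of all groups, which takes 1 dispersion per gene and so includes the spread of the tumors. When only SHH MB and P7 cerebella were fitted, the log2 fold change was 1.03 with an adjusted p of 1.24e-06 in edgeR. That fit called 13.4% of 29018 genes as higher in SHH MB, far more than the 0.177% of the fit of all groups, so the call on Otx2 depends on which libraries set the spread. With 3 libraries against 3, the exact permutation test cannot go below 0.10, the value it gave.

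Choroid plexus, which expresses Otx2 as well, has marker genes whose levels differed between the samples. The paper describes biopsy punches for the MYC/SMARCA4 tumors and whole cerebella for the P7 controls. Ttr, the transthyretin gene that marks its epithelium, had 8, 1, 22 and 7 counts in tumors 1 to 4. It had 5057, 10051 and 4227 counts in the P7 cerebella and 5409, 10118 and 1616 in SHH MB. In the choroid plexus list, 4 of 13 genes were lower and 0 higher in the tumors in the comparison with P7 cerebella as well as in that with SHH MB, with median log2 fold changes of -1.60 and -1.50. The 4 were Ttr, Tmem72, the water channel gene Aqp1 and the potassium channel subunit gene Kcne2. The summed level of the list was 79.5 to 158 CPM in the tumors, 747 to 1386 CPM in P7 cerebella and 358 to 1534 CPM in SHH MB.

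Tumors 2 and 3, with the highest Otx2 levels, had 1 and 22 counts of Ttr. Within SHH MB, Ttr was at 841, 1192 and 230 CPM while Otx2 was at 71.1, 57.4 and 66.5 CPM, so the library with the least Ttr had neither the lowest nor the highest Otx2. Between SHH MB and P7 cerebella, 0 of 13 choroid plexus genes passed in either direction, and the median log2 fold change of the list was 0.04. The part of choroid plexus cells in the Otx2 level of P7 cerebella and SHH MB was not tested.

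**Figure D2:**
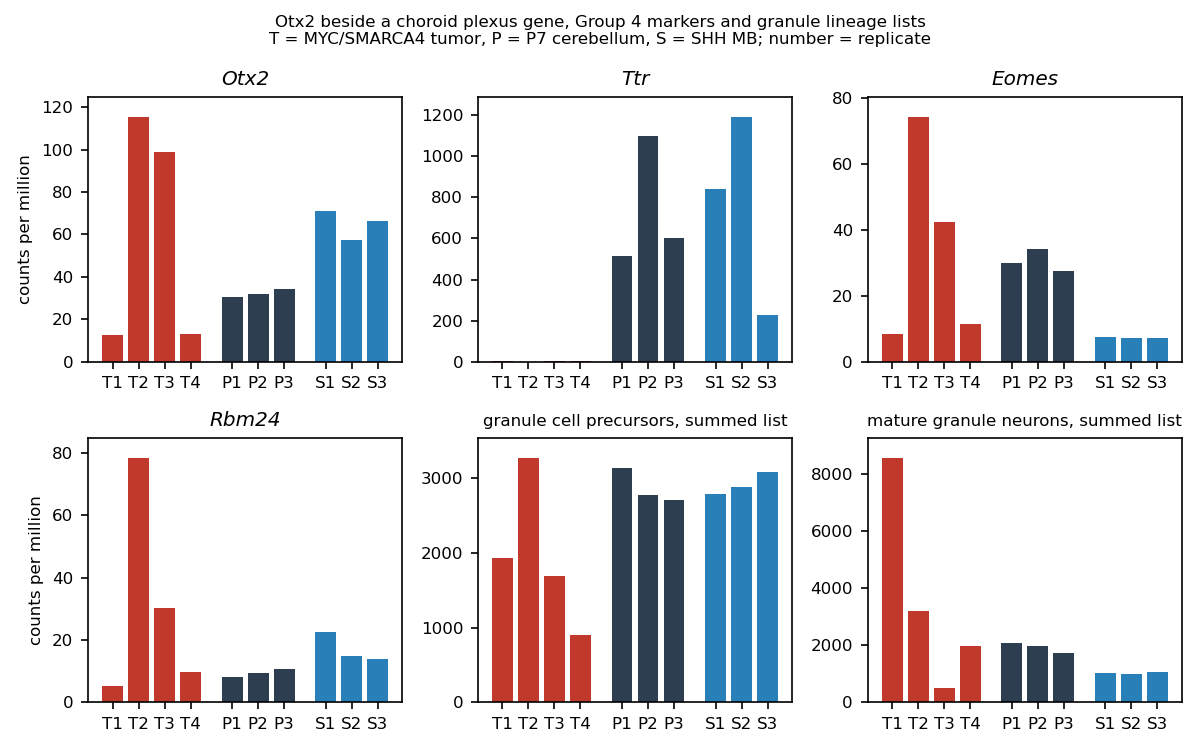
CPM by library (bars, axes starting at 0) of Otx2, Ttr, Eomes and Rbm24 and the summed CPM of the GCP and mature granule neuron lists, with T, P and S standing for MYC/SMARCA4 tumors, P7 cerebella and SHH MB. Otx2, Eomes and Rbm24 are each higher in tumors 2 and 3 than in tumors 1 and 4, Ttr is near 0 in all tumors, and mature granule neuron genes are highest in tumor 1.

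Marker genes of other cell types also varied between the same tumors. The 8 genes of mature granule neurons summed to 8576, 3198, 504 and 1984 CPM in tumors 1 to 4, against 1718 to 2081 CPM in P7 cerebella and 994 to 1073 CPM in SHH MB. Genes of myelinating oligodendrocytes summed to 4175, 841, 118 and 465 CPM in the tumors. Both sums were highest in tumor 1 and lowest in tumor 3. GCP genes summed to 1932, 3268, 1695 and 895 CPM in the tumors and to 2706 to 3125 CPM in P7 cerebella. The genes of this GCP list did not share 1 order of tumors. Zic1 was at 900, 609, 272 and 281 CPM in tumors 1 to 4, and Zic2 at 527, 303, 166 and 171 CPM. Atoh1, at 0.496, 24.7, 31.5 and 3.42 CPM, and Ccnd2, at 27.8, 1672, 820 and 187 CPM, were highest in tumors 2 and 3. These genes were picked with their values in view. The part of these cell types in the Otx2 level of each tumor was not tested.

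The 5 Group 4 markers did not share 1 order of tumors. Eomes and Rbm24, like Rorb, 1 of the 11 further photoreceptor factors, were high in the same tumors as Otx2, and these 3 were picked with their values in view. Eomes, a T-box factor of unipolar brush cells, was at 8.43, 74.3, 42.5 and 11.3 CPM in tumors 1 to 4. Rbm24, an RNA-binding protein, was at 5.21, 78.5, 30.2 and 9.88 CPM. Rorb, a nuclear receptor that acts upstream of rod genes in the retina, was at 4.96, 115, 50.4 and 28.3 CPM. In all 3 genes tumor 2 was the highest and tumor 1 the lowest, with tumor 3 second. The other Group 4 markers were highest in tumor 1, where Otx2 was lowest. Kcna1 was at 980, 582, 180 and 178 CPM in tumors 1 to 4, and Unc5d at 36.7, 25.2, 8.82 and 9.51 CPM. Khdrbs2 was at 43.4 CPM in tumor 1 and at most at 23.8 CPM in the other tumors. Esrrb, another of the photoreceptor factors, was also highest in tumor 1, at 26.5 CPM against 5.60 to 6.48 CPM in the other tumors. In SHH MB, where Otx2 was at 57.4 to 71.1 CPM, Eomes was at 7.07 to 7.62 CPM and below all P7 cerebella (27.5 to 34.2 CPM), so Otx2 and Eomes did not keep 1 order across groups.

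By the mean absolute difference of log2 CPM centred on each gene's mean over the 10 libraries, the 3 genes most like Otx2 were Cdkn2c (0.364), an inhibitor of cyclin-dependent kinases, Ccbe1 (0.370) and Gm14730 (0.373). Cdkn2c was at 8.92, 38.2, 30.9 and 7.44 CPM in tumors 1 to 4, at 20.8 to 23.6 CPM in P7 cerebella and at 33.3 to 39.8 CPM in SHH MB. As with Otx2, tumors 2 and 3 were above and tumors 1 and 4 below all P7 cerebella, and all SHH MB were above them, while the range was narrower.

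Otx2 shares its locus with other annotated genes. Otx2os1, a long non-coding RNA transcribed in the other direction, was counted on its own with 1 to 23 reads per library. Gm63043 on the opposite strand and Gm49154 on the same strand also overlap Otx2 in the annotation and had no row in the count files used here. Whether the counting used strand is not given in the sources used here, so reads of overlapping partners cannot be assigned with certainty. The Otx2os1 counts were 1, 9, 23 and 7 in the tumors and thus at most 6.54% of those of Otx2 in any library.

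Crx, a homeodomain factor that activates photoreceptor genes, lies on chr7:15599872-15613893 (minus strand) and overlaps no other annotated gene. It had 1, 2, 21 and 6 counts in tumors 1 to 4, which correspond to 0.248, 0.360, 2.94 and 0.732 CPM. P7 cerebella were at 3.88, 2.95 and 4.28 CPM (38, 27 and 30 counts), and SHH MB at 2.18, 2.83 and 1.42 CPM (14, 24 and 10 counts). All tumors were below all P7 cerebella, but tumor 3 (2.94 CPM) and P7 cerebellum 2 (2.95 CPM) were 6 counts apart and nearly level. Tumor 3 was also above all SHH MB and the other 3 tumors below all of them.

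The log2 fold change of Crx in the tumors against P7 cerebella was -1.70 ± 0.67 (SE), with a 95% interval of -3.16 to -0.25, an unadjusted p of 0.0255 and an adjusted p of 0.142 in edgeR. The exact permutation test on log2 CPM gave a p of 0.0571, where the smallest that 4 libraries against 3 allow is 0.0286. Against SHH MB the log2 fold change was -0.93 ± 0.69 (interval -2.42 to 0.57, adjusted p = 0.495 in edgeR). Without tumor 3, Crx passed in both comparisons, with log2 fold changes of -3.03 (adjusted p = 0.00436) and -2.24 (adjusted p = 0.0160) in edgeR. In that fit 22.8% of 28724 genes were lower than in P7 cerebella and 13.9% were lower than in SHH MB, so such a call was common there.

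Nrl, the basic leucine zipper factor that sets rod fate, lies on chr14:55756435-55762438 (minus strand) and also overlaps no other annotated gene. It had 8, 1, 20 and 11 counts in tumors 1 to 4, or 1.98, 0.180, 2.80 and 1.34 CPM. P7 cerebella were at 3.47, 3.82 and 4.85 CPM and SHH MB at 1.87, 2.83 and 1.56 CPM. Tumor 2 was near 0, tumor 3 the highest tumor, and all tumors were below all P7 cerebella while overlapping with SHH MB. Crx and Nrl were the 2 of 6 genes without overlap between tumors and P7 cerebella, where 10.7% of all genes tested were lower and 10.3% higher without overlap. Against SHH MB 0 of 6 were without overlap (8.3% lower and 7.83% higher over all genes).

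For Nrl the log2 fold change against P7 cerebella was -1.34 ± 0.61 (SE), the 95% interval -2.65 to -0.03, the unadjusted p 0.0452 and the adjusted p 0.188 in edgeR. The exact permutation p was 0.0571. Against SHH MB the log2 fold change was -0.40 ± 0.63 (interval -1.76 to 0.95, adjusted p = 0.764 in edgeR). Without tumor 3, Nrl passed against P7 cerebella with a log2 fold change of -2.01 (adjusted p = 0.0198 in edgeR).

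Rcvrn encodes recoverin, the calcium sensor that delays the shutdown of the light response. It lies on chr11:67586141-67594159 (plus strand), inside the span of Glp2r on the opposite strand, which had 12 to 80 counts. Rcvrn had 6, 1, 1 and 5 counts in tumors 1 to 4, then 13, 12 and 9 in P7 cerebella and 7, 6 and 2 in SHH MB. Tumors 2 and 3 were under the floor, while tumor 1 at 1.49 CPM was above every P7 cerebellum (1.28 to 1.33 CPM). The log2 fold change against P7 cerebella was -1.20 ± 0.78 (SE), with an interval of -2.89 to 0.48 and an adjusted p of 0.333 in edgeR. Without tumor 1 it was -1.95 (adjusted p = 0.124 in edgeR). Against SHH MB it was -0.30 ± 0.83 (adjusted p = 0.874 in edgeR). Counts were 1 to 13 per library and tumors lay on both sides of the P7 cerebella, so neither comparison gives a direction for Rcvrn. How far depth or the spread of the tumors sets these errors was not tested.

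**Figure D3:**
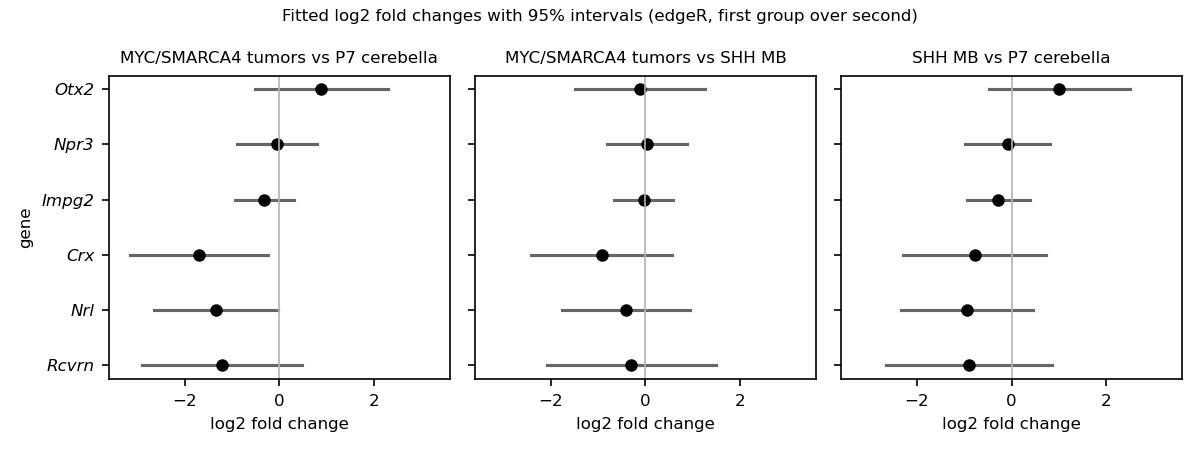
Fitted log2 fold change (dots) with 95% interval (lines) of each gene on the y axis in the 3 comparisons, with a vertical line at 0. The intervals of Crx and Nrl for MYC/SMARCA4 tumors against P7 cerebella end below 0, at -0.25 and -0.03, and the other 16 include 0.

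The fitted differences of Npr3 and Impg2 were the smallest among the 6 genes in each comparison. Npr3 encodes a receptor that clears natriuretic peptides and lies on chr15:11839982-11907373 (minus strand). Its levels were 5.21, 20.5, 11.6 and 9.15 CPM in tumors 1 to 4, from 10.4 to 13.0 CPM in P7 cerebella and from 9.37 to 13.6 CPM in SHH MB. Only tumor 2 was above the other groups and tumors 1 and 4 below them. The log2 fold change was -0.05 ± 0.39 (SE) against P7 cerebella, with an interval of -0.89 to 0.79, and 0.03 ± 0.39 against SHH MB, with an interval of -0.82 to 0.87 (adjusted p of 0.939 and 0.979 in edgeR). Its opposite-strand neighbor Gm5144 had 0 to 7 counts.

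Impg2 encodes a proteoglycan of the matrix between photoreceptors and lies on chr16:56024676-56094119 (plus strand), where the annotated Gm60915 overlaps it on the opposite strand without a row in the count files used here. It was at 9.17, 11.0, 15.0 and 9.15 CPM in tumors 1 to 4. P7 cerebella were at 13.8, 14.0 and 13.7 CPM and SHH MB at 12.9, 12.6 and 8.52 CPM. Tumor 3 was the highest library of all and tumors 1, 2 and 4 were below all P7 cerebella. The SD of log2 CPM over the tumors was 0.33, and 89.9% of all genes tested had a larger SD. Log2 fold changes were -0.32 ± 0.29 (SE) against P7 cerebella (interval -0.94 to 0.30, adjusted p = 0.479 in edgeR) and -0.03 ± 0.29 against SHH MB (interval -0.66 to 0.59, adjusted p = 0.963 in edgeR). The interval against P7 cerebella excludes an increase of 1 on the log2 scale in the tumors.

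Between SHH MB and P7 cerebella, the groups did not overlap in 5 of 6 genes. Otx2 was higher in SHH MB, and Impg2, Crx, Nrl and Rcvrn were lower. Over all genes tested, 17.8% were higher and 19.0% lower without overlap in this comparison. The log2 fold changes were -0.28 ± 0.31 (SE) for Impg2, -0.78 ± 0.70 for Crx, -0.94 ± 0.64 for Nrl and -0.91 ± 0.81 for Rcvrn. Adjusted p-values of all 6 genes were between 0.741 and 0.980 in edgeR, and the exact permutation p of each of the 5 genes was 0.10, the smallest possible.

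The levels of Crx and Nrl were set beside those of a gene family that is used chiefly in the olfactory epithelium. Olfactory receptor genes, chosen for this after the data were seen, number 1429 in the count files and served as a measure of counts at genes with little known use in the cerebellum. They summed to 404, 112, 1111 and 372 CPM in tumors 1 to 4, to 963, 1079 and 1202 CPM in P7 cerebella and to 908, 739 and 648 CPM in SHH MB. The order of libraries was almost that of Crx, with tumors 1, 2 and 4 low and tumor 3 next to the P7 cerebella. The Spearman correlation with this sum over the 10 libraries was 0.903 for Crx, 0.855 for Nrl, 0.818 for Impg2, 0.212 for Npr3, 0.2 for Rcvrn and 0.0545 for Otx2. In each library both levels come from the same tissue sample and scaling, and these values were given no p. What the olfactory receptor counts stem from was not tested.

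Per length, Crx and Nrl lay within the range of olfactory receptors. Among the 945 receptors with a length, the share with a lower RPKM than Crx in the same library was 53.0% to 87.8%, and the share lower than Nrl was 29.0% to 82.8%. Otx2 was above 99.0% or more of them in every library. Impg2 was above 81.8% to 100% of them, Npr3 above 64.6% to 100% and Rcvrn above 10.9% to 98.5%.

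**Figure D4:**
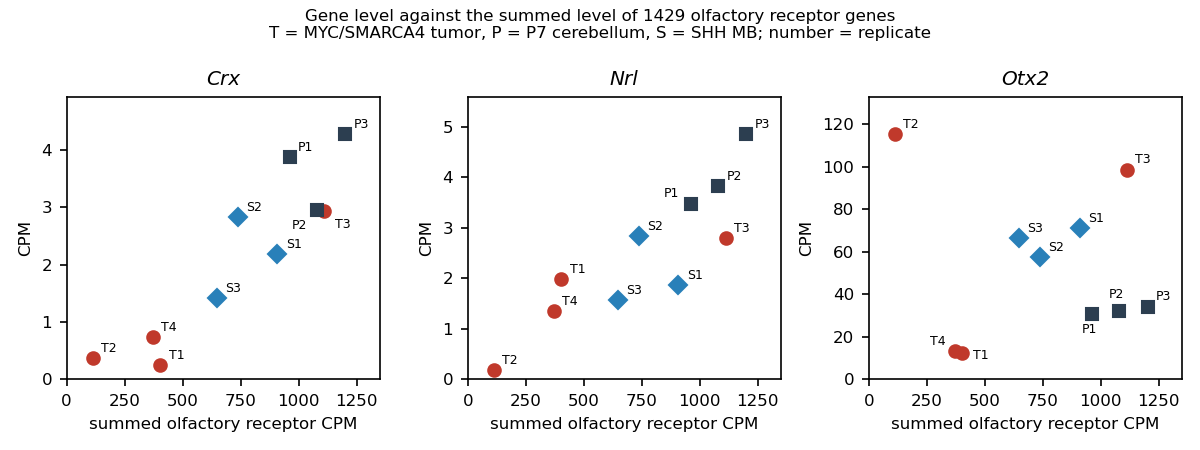
Level of Crx, Nrl and Otx2 in CPM (y axes) against the summed CPM of 1429 olfactory receptor genes (x axes), 1 point per library, with T, P and S for MYC/SMARCA4 tumors, P7 cerebella and SHH MB. Crx and Nrl are low where the sum is low, as in tumor 2 with 112 CPM, while Otx2 is highest in tumor 2 (115 CPM) and second in tumor 3 (98.6 CPM), whose sums are far apart.

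Few other genes of the photoreceptor program passed the test, and those in the tumors were lower. In the list of phototransduction and outer segment genes, 0 of 35 tested genes were higher and 1 lower in the tumors than in P7 cerebella, with a median log2 fold change of -0.75 against -0.05 over all genes. Against SHH MB 0 were higher and 1 lower (median -0.24), and 0 passed between SHH MB and P7 cerebella (median -0.38). The 1 gene was Abca4, a retinoid transporter of the outer segment, between 8.43 and 16.0 CPM in the tumors against 17.8 to 28.3 CPM in P7 cerebella and 18.9 to 29.5 CPM in SHH MB. Its log2 fold changes were -1.12 ± 0.30 (adjusted p = 0.0474) and -1.19 ± 0.30 (adjusted p = 0.0427) in edgeR. Over the 10 libraries the summed CPM of the phototransduction and outer segment list had a Spearman correlation of 0.964 with the olfactory receptor sum. The further photoreceptor transcription factors were not part of that sum.

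Of 11 further photoreceptor transcription factors, 0 were higher and 1 lower in the tumors than in P7 cerebella. This was Rxrg, a retinoid X receptor of cones, at 1.74, 0.180, 2.52 and 2.07 CPM in the tumors and at 7.42 to 9.40 CPM in P7 cerebella (log2 fold change -2.33 ± 0.52, adjusted p = 0.0234 in edgeR). It was also lower than in SHH MB, at 6.25 to 9.33 CPM (log2 fold change -2.27 ± 0.52, adjusted p = 0.0272 in edgeR).

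CRX and OTX2 are known to bind the letters TAATCC, or GGATTA on the other strand. These letters were searched on both strands in the 250 bases before each start in the RefSeq promoter table, whose build is GRCm38, and all windows of 5 of the 6 genes were found once each in GRCm39. Rcvrn was not in the table. The Crx window held 2 matches, with first bases 94 and 21 bases before the start, and 1 of 4 Otx2 windows held 1. The windows of Nrl, Npr3 and Impg2 held none. Over 32851 windows of 27025 genes, 6.25% held at least 1 match and 0.295% at least 2. The Crx window outside the annotated gene (chr7:15613894-15614130, 237 bases, GRCm39, minus strand, from RefSeq) is shown because Crx is at once a member and a gene that OTX2 is known to switch on. Its matches are in capitals.
Crx: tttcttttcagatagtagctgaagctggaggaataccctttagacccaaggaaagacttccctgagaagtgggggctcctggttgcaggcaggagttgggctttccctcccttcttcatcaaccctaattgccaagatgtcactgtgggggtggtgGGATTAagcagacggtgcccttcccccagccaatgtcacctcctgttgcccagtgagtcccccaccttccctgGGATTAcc
Tumors 2 and 3, with the highest Otx2 levels, had 2 and 21 counts of Crx, and tumors 1 and 4 had 1 and 6. A match of letters is a description of the sequence and was not related to binding here.

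Natriuretic peptide signaling, the pathway of Npr3, had 0 of 9 tested genes that passed in any comparison. The median log2 fold changes were -0.36, -0.15 and -0.33 for tumors against P7 cerebella, tumors against SHH MB and SHH MB against P7 cerebella. The best expressed of them, Furin, a protease that processes the peptides, and Npr2, the receptor of C-type natriuretic peptide, had log2 fold changes of -0.19 ± 0.30 (SE) and 0.09 ± 0.29 in the tumors against P7 cerebella.

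A pair of other Group 3 markers, Gabra5 and Mab21l2, were read beside the members. Mab21l2, a factor of eye and brain development, was lower in the tumors than in SHH MB (log2 fold change -1.68 ± 0.39, adjusted p = 0.0285 in edgeR). Its levels were 6.69, 18.0, 25.2 and 10.7 CPM in the tumors, 7.87 to 11.2 CPM in P7 cerebella and 35.3 to 59.1 CPM in SHH MB. Tumors 2 and 3 were above all P7 cerebella, and the log2 fold change against them was 0.60 ± 0.40 (adjusted p = 0.343 in edgeR). Gabra5, a subunit of the GABA-A receptor, was at 2.23, 1.62, 2.38 and 9.64 CPM in the tumors and at 6.85 to 12.4 CPM in P7 cerebella (log2 fold change -1.26 ± 0.54, adjusted p = 0.170 in edgeR). Tumor 4 alone reached the range of the P7 cerebella.

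Markers of the other MB subgroups were read in the same way. Of 5 Group 4 markers, 0 were higher and 1 (Khdrbs2) lower in the tumors than in P7 cerebella, and 1 (the potassium channel gene Kcna1) was higher and 0 lower than in SHH MB. Of 5 SHH markers, 2 were lower than in P7 cerebella (Sfrp1 and Pdlim3) and 3 lower than in SHH MB (Sfrp1, Pdlim3 and Hhip), with none higher in either. Of 5 WNT markers, only Tnc passed, and it was lower in the tumors in both comparisons. In SHH MB against P7 cerebella, 1 SHH marker (Pdlim3) was higher and 0 Group 4 or WNT markers passed.

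Marker lists of further cell types were counted to show what the samples could hold. Pinealocyte genes, a known source of Crx outside the retina, had 0 of 4 tested genes that passed in any comparison, and summed to 3.42 to 24.2 CPM in the tumors, 16.4 to 22.4 CPM in P7 cerebella and 15.2 to 22.4 CPM in SHH MB. Mature granule neuron genes were higher in 4 of 8 in the tumors against each other group, among them Gabra6 and Cbln3. GCP genes were lower in 2 of 9 in both comparisons, Barhl1 and Mycn. Among fibroblast and meningeal genes 1 of 11 (Ogn) was higher than in P7 cerebella and 0 passed against SHH MB. Of endothelial genes 0 of 10 passed against P7 cerebella and 1 (Kdr) was lower than in SHH MB, and of myelinating oligodendrocyte genes 0 of 8 passed against P7 cerebella and 1 (Mal) was higher than in SHH MB. Their part in the levels of the 6 genes was not tested.

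The genes with patterns most like the other members were mostly unnamed predicted genes. The closest to Crx were Gm31754 (0.129), Gm52287 (0.164) and Gm41510 (0.171), in mean absolute difference of centred log2 CPM over 10 libraries. For Nrl they were the pseudogene Phf8-ps (0.155), Gm52904 (0.165) and Gm32663 (0.171). For Rcvrn they were Adamts3 (0.199), Gm34621 (0.208) and Slc22a12 (0.233). Npr3 was closest to Gm19665 (0.163), Klhdc7a (0.168) and Adamtsl5 (0.169), and Impg2 to Gm16168 (0.125), Pkd2l2 (0.141) and Gm52294 (0.141). Gm31754, at 0.496, 0.540, 3.92 and 1.10 CPM in tumors 1 to 4 and at 4.15 to 6.42 CPM in P7 cerebella, had the same low tumors as Crx.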

How the data were processed

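RNA was extracted by the authors from FFPE tissue, depleted of ribosomal RNA and turned into total RNA libraries with a CORALL kit. The paper names biopsy punches for the MYC/SMARCA4 tumors and whole cerebella for P7, and does not state which applies to SHH MB. Sampling thus also differs between these tumors and P7 cerebella and cannot be told apart from tumor type. The submitters' processing notes name FastQC 0.73, Trimmomatic 0.38.1, STAR 2.7.8a with GRCm39, featureCounts 2.0.1 and DESeq2 2.11.40.7. The deposited count files give raw reads per gene, unscaled, and strand and annotation of the counting are not given in the sources used here. The authors also deposited VST values on a log2 scale, used here only as an alternative. Total RNA libraries can hold unspliced RNA, so low counts need not come from mature mRNA.

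Libraries were grouped by their labels. No column was left without a sample. The labels do not say more on how replicates were taken than their numbers and, for tumors, ages, so p-values measure the spread between these libraries. Counts were tested with edgeR 4.0.16 in R 4.3.3 (quasi-likelihood test, TMM factors, filterByExpr by group, all 10 libraries in 1 fit, Benjamini-Hochberg adjustment over 29952 genes, threshold 0.05). The fit had a common dispersion of 0.178 and 5.87 prior degrees of freedom. On log2 CPM (prior count 2), the groups of each member were compared by an exact two-sided permutation test. The floor was 3 counts, and it covers counting error only, while the intervals of log2 fold changes come from the edgeR fit. Tests were checked on simulated data. Exon lengths and positions came from GENCODE vM39 and the lengths of olfactory receptors (span of at most 1500 bases) from the RefSeq gene table.

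Members and the 14 lists (139 genes, of which 133 were tested) were chosen with earlier results of these data known. The text names all members, Myc and Smarca4, genes overlapping members, up to 4 passing genes per list and comparison by lowest p (where none pass, up to 2 with the highest mean level), and the 3 genes most like each member. Eomes, Rbm24, Rorb, Unc5d, Esrrb, Gabra5, Atoh1, Ccnd2, Zic1, Zic2, Ttr levels beside Otx2 and the olfactory receptors were added after their values were seen. Results for some list genes are not reported here.

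Alternatives were RLE factors, DESeq2 1.42.0, limma 3.58.1 on the deposited VST values, no filter, at least 10 counts in 3 libraries, robust estimation, a block for the replicate number, a fit restricted to the 2 groups compared, each library left out, a log2 fold change of at least 2.5 with an adjusted p of at most 0.01, a prior count of 0.5, the longest transcript as length and, chosen after seeing the data, scaling of the 6 genes by olfactory receptor counts.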

Additional observations from a re-analysis of the deposited data

How the results depend on the processing

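None of the 6 genes passed in any comparison under RLE factors, DESeq2, limma on VST values, no filter, at least 10 counts in 3 libraries, robust estimation or the stricter threshold, and the replicate block also gave 0 in each comparison. With the block, the log2 fold change of Impg2 against SHH MB was 0.047. Same-numbered libraries correlated at -0.274 to 0.162 in their deviations from group means. These correlations were not compared with those of differently numbered libraries, so they cannot settle whether the numbers pair libraries. The block moved the calls over all genes against P7 cerebella from 1194 higher and 679 lower to 165 and 205. With each library left out, the number that passed was between 0 and 2 against P7 cerebella and between 0 and 1 against SHH MB, the highest without tumor 3, and with only the 2 groups compared it was 1 (Otx2) for SHH MB against P7 cerebella. DESeq2 gave 3127 higher and 1496 lower genes against P7 cerebella and 414 and 160 for SHH MB against P7 cerebella, and limma on VST values 553 and 567 in the former. With only the 2 groups compared there were 58 and 171 in the former, 88 and 300 against SHH MB, and 3886 and 2997 for SHH MB against P7 cerebella. The median over all genes against P7 cerebella was -0.05, and -0.25 without a filter and -0.23 with limma.

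Directions turned where values were near 0. Npr3 against P7 cerebella was 0.00025 without a filter and -0.46 to 0.19 with libraries left out. Npr3 against SHH MB was -0.077 with limma, -0.028 with only the 2 groups compared and -0.38 to 0.24 with libraries left out, and in SHH MB against P7 cerebella -0.21 to 0.077. With libraries left out, values against SHH MB were -0.64 to 0.26 for Otx2, -0.36 to 0.051 for Impg2 and -1.06 to 0.15 for Rcvrn. Against P7 cerebella the ranges were 0.37 to 1.26 for Otx2, -0.65 to -0.23 for Impg2, -3.03 to -1.41 for Crx, -2.01 to -0.98 for Nrl and -1.95 to -0.93 for Rcvrn. Scaling by olfactory receptor counts (0.5 counts added) multiplies all genes of a library by the same factor, so its turns say nothing on a single gene. It gave log2 differences from P7 cerebella of 1.33 for Npr3, 1.197 for Impg2 and 0.084 for Rcvrn in the tumors, and of 0.42 for Npr3 and 0.20 for Impg2 in SHH MB. Tumors differed from SHH MB by 0.23 for Otx2, 0.91 for Npr3, 0.997 for Impg2, 0.27 for Nrl and 0.58 for Rcvrn. Low counts limit Crx, Nrl and Rcvrn, whose values rest on as few as 1 count.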

Other observations

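The number of genes with at least 1 count was lowest in tumor 2 and highest in tumor 3 among the tumors, as was the olfactory receptor sum. Tumors 1 to 4 had 36933, 34735, 44158 and 42327 genes with a count, and the other libraries 42563 to 45490. Olfactory receptors with at least 1 count numbered 535, 340, 1261 and 1022 in tumors 1 to 4, of 1429. Total counts of these tumors were 6547245, 6945005, 5663491 and 9352109, so tumor 3, with the fewest counts, had the most genes with a count among them. Myc, at 1587 CPM, was highest in tumor 3 and at 152 CPM lowest in tumor 1, while Otx2 was at 98.6 and 12.4 CPM there. Tumor 4 had Myc at 1016 CPM with Otx2 at 13.1 CPM, and tumor 2 had Myc at 368 CPM with Otx2 at 115 CPM. Myc and Otx2 thus did not share 1 order of tumors.

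Leaving out tumor 3 moved the median log2 fold change of all genes against P7 cerebella from -0.05 to -0.18 and the number of genes lower from 679 to 6551.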
